A study of Mus musculus with 6 samples.

Results

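The receptors by which large peritoneal macrophages bind IgG, the adaptor chains that carry their signal and the kinase that receives it were examined in cells taken from mice 30 min after intraperitoneal infection with E. coli. The set comprised 7 of the 20336 genes in the deposited table, chosen by gene name: the activating receptors Fcgr1, Fcgr3 and Fcgr4, the inhibitory receptor Fcgr2b, the adaptors Fcer1g and Tyrobp, and the kinase Syk. PolyA RNA was sequenced from 3 libraries of PAC knockout cells (genotype label Cxcr3-PAC-/-) and 3 libraries of floxed control cells (genotype label PAC F/F), all infected. PAC is the proton-activated chloride channel. The knockout label names Cxcr3, whereas the design text gives Cx3cr1 as the driver of the deletion, and the driver is named for the knockout alone. PBS-treated mice, which the design text also lists, are not analysed here, and nothing below measures the response to infection. The sources used here do not give age, sex or strain. They do not say whether the libraries are from different mice either, so that p-values measure the spread between libraries, which may be technical.

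Fc gamma receptors bind the constant part of IgG on coated particles. In mice, the activating receptors need the common gamma chain, encoded by Fcer1g, for surface expression and signalling. Src-family kinases phosphorylate the paired tyrosines of the activation motif (ITAM) in that chain, Syk docks there, and actin-driven engulfment follows. Fcgr2b instead carries an inhibition motif (ITIM) in its own tail, which recruits the lipid phosphatase Inpp5d. Tyrobp (DAP12) is a second adaptor with an activation motif, used by other myeloid receptors such as Trem2.

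The coding sequences that distinguish these roles are shown because the receptors of the activating class carry no activation motif of their own. An activation motif was searched as 2 tyrosines, each followed 3 residues on by leucine or isoleucine, with 6 to 12 residues between the 2 stretches. Among the principal GENCODE M21 transcripts of the 7 genes it was found in Fcer1g and Tyrobp, once in each, and in none of the other 5 genes. In both adaptors the stretch begins in exon 4 and ends in exon 5, of 5 exons, at chr1:171229886-171230075 (minus strand) for Fcer1g and chr7:30415667-30417385 (plus strand) for Tyrobp (GRCm38). The inhibition motif of Fcgr2b lies in exon 8 of 8, at chr1:170961068-170961091 (minus strand). Capitals mark the codons of the motif tyrosines, and each stretch runs from 1 codon before the motif to 1 codon after it.
Fcer1g activation motif: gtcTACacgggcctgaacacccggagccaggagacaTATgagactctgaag
Tyrobp activation motif: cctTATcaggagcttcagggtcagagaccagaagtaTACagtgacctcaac
Fcgr2b inhibition motif: acgatcaccTACtcacttctcaag
The inhibition pattern, a tyrosine with isoleucine, leucine, valine or serine 2 residues before it and isoleucine, leucine or valine 3 residues after it, is short. It also matched at 3 places in Fcgr1 and at 1 place each in Fcgr4, Fcer1g and Tyrobp, which are not printed.

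Of the 7 genes, 4 lie together on chromosome 1. Fcgr2b (ENSMUSG00000026656, 170958617 to 170976547, minus strand), Fcgr4 (ENSMUSG00000059089, 171018920 to 171029761, plus strand), Fcgr3 (ENSMUSG00000059498, 171051174 to 171064935, minus strand) and Fcer1g (ENSMUSG00000058715, 171229572 to 171234365, minus strand) fall within 276 kb of GRCm38. Fcgr1 (ENSMUSG00000015947) is on chromosome 3 at 96282909 to 96293969 (minus strand), Tyrobp (ENSMUSG00000030579) on chromosome 7 at 30413760 to 30417585 (plus strand), and Syk (ENSMUSG00000021457) on chromosome 13 at 52583173 to 52648792 (plus strand). Fcgr2b and Fcgr3 are near copies over part of their length: 9.58% of the distinct 50-base stretches of Fcgr3 transcripts also occur in Fcgr2b transcripts, and 2.92% of those of Fcgr2b in Fcgr3. No other pair of the 7 genes shared a 50-base stretch. The sources used here do not say how reads from the shared part were counted, so a part of the counts of these 2 genes is uncertain. An antisense gene that overlaps Fcgr2b, Gm38204, held at most 5 counts in any library.

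The libraries held 15981530 to 20648832 counts, and every one of the 7 genes was far above the detection floor, with at least 232 counts in each library. The targeted gene, listed as Tmem206, had 4.27, 6.13 and 5.49 CPM (counts scaled to library size by edgeR's TMM factors) in the knockout libraries. The control libraries had 6.33, 12.2 and 8.16 CPM. The groups did not overlap, as for 9.33% of all tested genes. The log2 fold change of Tmem206 was -0.75 (SE 0.31; edgeR unadjusted p = 0.0367, adjusted p = 0.997), so that it did not pass at an adjusted p under 0.05. All 9 markers of large peritoneal macrophages were above the floor in every library, with Gata6, their defining transcription factor, at 59.4 to 94.8 CPM in the knockout and 61.5 to 69.2 CPM in the control. Cx3cr1, a chemokine receptor gene of mononuclear phagocytes and the driver named in the design text, was itself at 0.474, 0 and 0 CPM in the knockout libraries and 0.927, 0.696 and 0.421 CPM in the control libraries. Markers of small peritoneal macrophages and monocytes summed to 62.6 to 96.0 CPM in the knockout and 123 to 227 CPM in the control, without overlap. All 6 tested genes of the 8 had estimates below 0, whereas 48.8% of all tested genes were above 0. Their median log2 fold change was -1.41. At an unadjusted edgeR p under 0.05 there were 5 of the 6, beside 4.18% of all tested genes. Without overlap there were 4 of the 6, beside 9.33%. None passed at an adjusted p under 0.05. The part of this difference in the values below was not tested. The 8 B cell markers summed to 63.9 to 277 CPM and 43.0 to 489 CPM, and the 9 mast cell and eosinophil markers to 140 to 251 CPM and 57.7 to 147 CPM, in knockout and control. The 7 neutrophil markers summed to 5.21 to 14.9 CPM in the knockout and 2.47 to 4.74 CPM in the control, without overlap. The 1 of them that was tested, S100a8, had a log2 fold change of 1.03 with an unadjusted edgeR p under 0.05. S100a9 had 2.55, 3.48 and 0.499 CPM in the knockout libraries, against 0.463, 0 and 0 CPM in the control libraries. Camp was highest in control replicate 2. The defining marker Ly6g was at 0 in 5 of the 6 libraries and at 0.379 CPM in knockout replicate 2, the library with the largest neutrophil sum. Neutrophils also express Fcgr3, Fcgr4, Fcer1g and Tyrobp, and their part in these values was not tested. Sums for T and NK cells were 2.97 to 5.04 CPM in the knockout and 1.37 to 3.88 CPM in the control, and for dendritic cells 9.86 to 16.5 CPM and 8.63 to 19.6 CPM, in knockout and control. In such bulk samples, fewer cells of a type and less RNA per cell cannot be told apart.

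Per unit of deposited gene length, the adaptors and Fcgr3 were the most abundant members. In deposited FPKM (fragment counts scaled to gene length and library size) over all 6 libraries, Tyrobp averaged 775, Fcgr3 400, Fcer1g 283, Fcgr4 77.6, Fcgr2b 39.9, Syk 39.2 and Fcgr1 9.93. The lengths run from 667 bases for Tyrobp to 9362 for Syk, and the order depends on them. In mean CPM, Syk (324 in the knockout, 331 in the control) was above Fcer1g (229 and 213). Likewise, Fcgr2b (189 and 223) was above Fcgr4 (99.0 and 74.5), and Fcgr3 (671 and 569) above Tyrobp (502 and 423). The lowest library of Tyrobp (583 FPKM) lay above the highest of Fcgr3 (489), the lowest of Fcgr3 (335) above the highest of Fcer1g (305), and the lowest of Fcer1g (258) above the highest of Fcgr4 (102). Fcgr4 and Fcgr2b overlapped between libraries (lowest Fcgr4 48.8, highest Fcgr2b 52.5 FPKM), although Fcgr4 was the higher in each of the 6. Fcgr2b and Syk did not differ beyond their spread: Fcgr2b was the higher in 1 of 6 libraries, and the 2 change places without floxed control replicate 1. Fcgr1, the high-affinity receptor, was lowest in every library, at 5.83 to 13.8 FPKM. Fcgr3 made up 80.6, 80.9 and 82.5% of the summed FPKM of the 3 activating receptors in the knockout libraries, and 77.7, 86.5 and 85.9% in the control libraries.

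**Figure D1:**
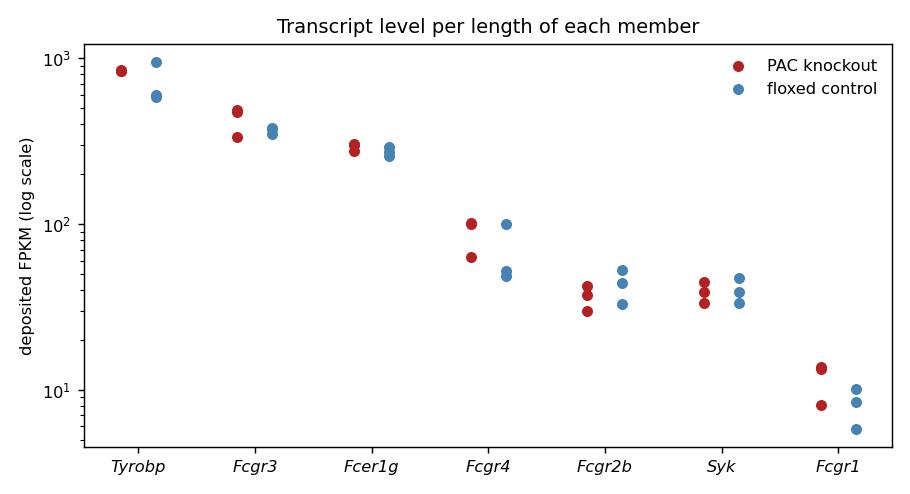
Deposited FPKM (log scale) of each gene, ordered by the mean over 6 libraries; each point is a library, with PAC knockout (red) left of floxed control (blue). The order runs from Tyrobp (mean 775 FPKM) to Fcgr1 (mean 9.93 FPKM), and Fcgr2b and Syk occupy the same range.

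The comparison asks whether the knockout genotype goes with a different supply of IgG receptors and of their signalling chain in infected macrophages. Loss of the channel is taken from the genotype label, since the Tmem206 transcript was still counted in the knockout libraries. None of the 7 genes passed the test, at an adjusted p under 0.05 in edgeR's quasi-likelihood test over all 12786 tested genes, and no gene of the table did (0%). The 7 genes shared the adjusted p of 0.997. DESeq2 called 22 genes, limma-voom 0 and edgeR without control replicate 3 called 18, and none of the 7 was among them. At an unadjusted p under 0.05 in edgeR there were 0 of the 7, against 534 (4.18%) of all tested genes. Estimates were above 0 for 5 of the 7 genes and below 0 for 2, with a median log2 fold change of 0.24, beside 48.8% above 0 and a median of -0.01 over all tested genes. In none of the 7 did the knockout and control libraries separate without overlap in CPM, beside 9.33% of all tested genes. With 3 libraries against 3, the smallest two-sided exact permutation p is 0.10.

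**Figure D2:**
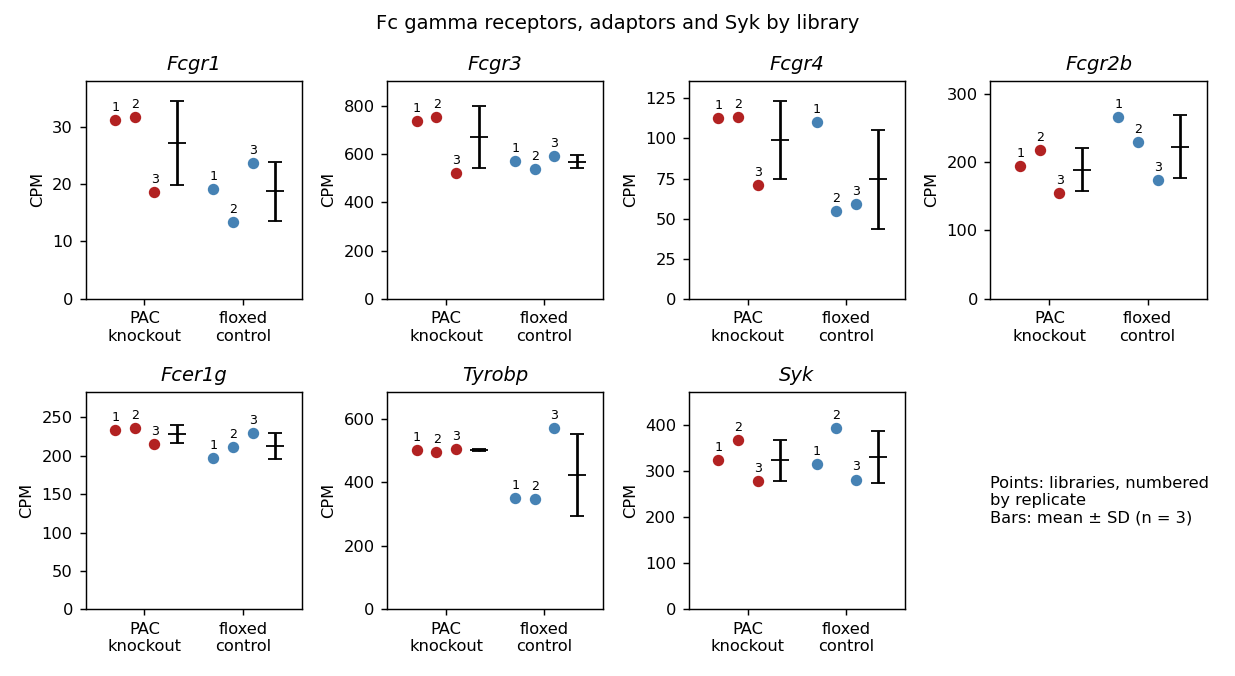
TMM-scaled CPM of the 7 genes; points are libraries numbered by replicate, with the mean and SD of each group (n = 3) at their right, and PAC knockout is left of floxed control. For Fcgr1, Fcgr3 and Fcgr4, knockout replicates 1 and 2 stand at the top and knockout replicate 3 lies near or below the control mean. For Fcgr4, control replicate 1 stands almost level with them.

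The activating receptors come first. Fcgr1, which binds monomeric IgG with high affinity and is known as an interferon-inducible gene, had 31.2, 31.6 and 18.7 CPM in knockout replicates 1, 2 and 3, against 19.1, 13.5 and 23.7 CPM in the control replicates. Knockout replicates 1 and 2 were the highest of the 6 libraries, and knockout replicate 3 lay below 2 of the 3 controls. The means were 27.2 ± 7.35 CPM in the knockout and 18.7 ± 5.13 CPM in the control (SD, n = 3 each). The log2 fold change was 0.53 (SE 0.25, 95% interval -0.03 to 1.10; edgeR p = 0.0616, adjusted p = 0.997; exact permutation p = 0.30). Counting error was at most 6.57% of the value in a library, smaller than the coefficients of variation of 27.1% and 27.4% between knockout and between control libraries.

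Fcgr3, the low-affinity activating receptor and the most abundant of the 4 receptors, had 737, 753 and 521 CPM in the knockout libraries, against 573, 540 and 593 CPM in the control libraries. Again knockout replicates 1 and 2 were highest, while knockout replicate 3 was the lowest of the 6. The log2 fold change was 0.24 (SE 0.16, 95% interval -0.11 to 0.58; edgeR p = 0.157, adjusted p = 0.997; exact permutation p = 0.40). The control libraries were closer together (coefficient of variation 4.67%) than the knockout libraries (19.3%).

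Fcgr4, the mouse receptor of intermediate affinity for IgG2 subclasses, had 113, 113 and 70.9 CPM in the knockout libraries, against 110, 54.6 and 59.0 CPM in the control libraries. Here control replicate 1 was at the level of knockout replicates 1 and 2, so that the 6 libraries formed a high set of 3 and a low set of 3 that cut across genotype. The log2 fold change was 0.41 (SE 0.30, 95% interval -0.30 to 1.12; edgeR p = 0.219, adjusted p = 0.997; exact permutation p = 0.20). Without control replicate 1 it was 0.80.

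The promoters of the 3 activating receptors are shown because their transcripts were together at their highest in knockout replicates 1 and 2. Fcer1g shared this trait, as did the large peritoneal macrophage markers Gata6, Timd4, Adgre1 and Prg4. The markers Alox15, Cd9, Icam2, Itgam and Selp did not. For Fcgr4, control replicate 1 was close behind, at 110 CPM against 113 CPM in both of those knockout libraries. The share of all genes with this trait was not counted. Each promoter is the RefSeq window on GRCm38.p6 from 250 bases before to 50 bases after the start, at chr3:96293920-96294219 (minus strand) for Fcgr1, chr1:171059354-171059653 (minus strand) for the first of the Fcgr3 windows and chr1:171018676-171018975 (plus strand) for Fcgr4. Capitals mark matches on either strand to GAGGAA, the core of sites for PU.1, the ETS factor of myeloid cells.
Fcgr1 promoter: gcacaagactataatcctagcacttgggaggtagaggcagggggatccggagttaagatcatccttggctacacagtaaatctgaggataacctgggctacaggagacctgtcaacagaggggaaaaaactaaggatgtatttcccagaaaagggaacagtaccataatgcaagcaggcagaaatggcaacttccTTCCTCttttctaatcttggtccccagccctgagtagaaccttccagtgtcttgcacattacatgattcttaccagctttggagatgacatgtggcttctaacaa
Fcgr3 promoter: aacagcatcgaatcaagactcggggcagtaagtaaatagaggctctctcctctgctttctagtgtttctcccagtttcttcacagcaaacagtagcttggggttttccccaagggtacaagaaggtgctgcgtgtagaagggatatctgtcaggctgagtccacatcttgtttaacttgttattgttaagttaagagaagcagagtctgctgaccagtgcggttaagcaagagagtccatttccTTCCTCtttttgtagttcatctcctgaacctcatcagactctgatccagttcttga
Fcgr4 promoter: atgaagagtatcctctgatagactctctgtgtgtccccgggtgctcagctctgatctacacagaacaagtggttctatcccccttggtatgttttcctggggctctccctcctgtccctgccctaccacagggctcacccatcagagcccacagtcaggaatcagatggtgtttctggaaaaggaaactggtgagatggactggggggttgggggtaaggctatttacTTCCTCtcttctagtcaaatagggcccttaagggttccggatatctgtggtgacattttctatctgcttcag
GAGGAA occurred once in each of the 3, with its first base at position -55 in Fcgr1, -6 in Fcgr3 and -22 in Fcgr4, counted from the start. It did not occur in the window of Fcer1g, whose transcript was also highest in those 2 libraries, nor in that of Fcgr2b. Of the 2 windows of Syk it occurred once in the second, and 28.3% of all 32851 promoter windows hold it. The longer form GAGGAAGT was found in Fcgr4 alone among the windows of these 6 genes, and in 3.20% of all windows. A match is a description of these letters and not a measured binding site.

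The inhibitory receptor had the opposite sign. Fcgr2b had 194, 217 and 155 CPM in the knockout libraries, against 265, 228 and 174 CPM in the control libraries. Control replicates 1 and 2 were the highest of the 6 libraries, and control replicate 3 lay below 2 of the 3 knockouts. Its log2 fold change was -0.24 (SE 0.18, 95% interval -0.63 to 0.15; edgeR p = 0.207, adjusted p = 0.997; exact permutation p = 0.40). Fcgr2b is also the Fc gamma receptor of B cells, whose 8 markers summed to 277, 63.9 and 120 CPM in the knockout libraries, against 75.9, 489 and 43.0 CPM in the control libraries. Control replicate 1, with the most Fcgr2b, had a B cell sum of 75.9 CPM. Control replicate 2, second in Fcgr2b, had the largest B cell sum. All 8 B cell markers had estimates below 0, whereas 48.8% of all tested genes were above 0. Their median log2 fold change was -0.36, with none at an unadjusted edgeR p under 0.05, beside 4.18% of all tested genes. The part of B cell RNA in the Fcgr2b values was not tested.

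Set against each other within a library, the activating and inhibitory receptors gave a ratio that does not depend on library scaling. The summed FPKM of Fcgr1, Fcgr3 and Fcgr4 was 15.7, 14.3 and 13.6 times that of Fcgr2b in the knockout libraries, against 9.28, 9.12 and 13.2 times in the control libraries. The groups did not overlap, but knockout replicate 3 (13.6) and control replicate 3 (13.2) lay close to each other. How often ratios of other genes separate in this way was not counted, and none of the 7 genes separated in CPM. The means were 14.5 ± 1.08 in the knockout and 10.5 ± 2.33 in the control (SD, n = 3 each), and the mean of the log2 ratios was 0.48 higher in the knockout. With 1 library left out that difference ran from 0.39 to 0.66. It is given as a description without a test, since it combines chosen genes. Taken singly, the Fcgr4 to Fcgr2b ratio did not overlap between genotypes (2.68, 2.41 and 2.10 in the knockout, against 1.91, 1.10 and 1.56 in the control). The Fcgr3 to Fcgr2b ratio did overlap (12.7, 11.6 and 11.2, against 7.21, 7.89 and 11.4), as did that of Fcgr1 to Fcgr2b (0.359, 0.326 and 0.269, against 0.161, 0.132 and 0.305). These ratios include the reads that Fcgr2b and Fcgr3 may share. Their size also depends on the deposited gene lengths, such as 5790 bases for Fcgr2b against 1736 for Fcgr3. They are therefore not a measured balance of transcript numbers.

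**Figure D3:**
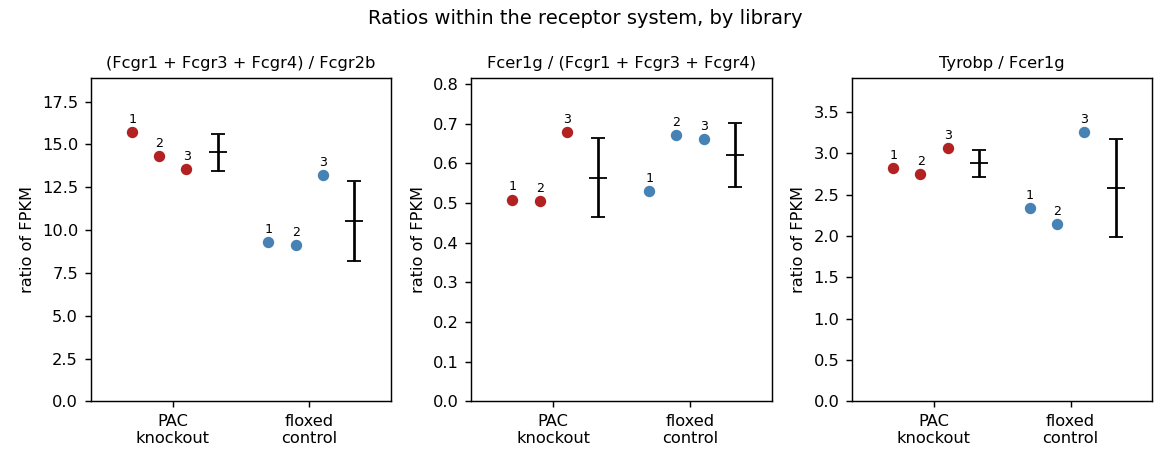
Ratios of deposited FPKM within each library, with PAC knockout left of floxed control, points numbered by replicate and mean ± SD (n = 3) beside them. The activating to inhibitory ratio was 13.6 to 15.7 in the knockout and 9.12 to 13.2 in the control, whereas the other 2 ratios overlapped.

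The adaptors and the kinase had log2 fold changes between -0.03 and 0.25. Fcer1g, the common gamma chain, had 234, 236 and 216 CPM in the knockout libraries, against 197, 211 and 230 CPM in the control libraries. Its whole range over 6 libraries was 0.27 on the log2 scale, the narrowest of the 7 genes. Its log2 fold change was 0.10 (SE 0.12, 95% interval -0.16 to 0.37; edgeR p = 0.409, adjusted p = 0.997; exact permutation p = 0.20). Relative to the summed activating receptors it stood at 0.509, 0.504 and 0.678 in the knockout and 0.529, 0.672 and 0.662 in the control, in FPKM. Mast cells use the same chain in their IgE receptor, and the mast cell and eosinophil markers summed to 251, 171 and 140 CPM in the knockout, against 74.2, 57.7 and 147 CPM in the control. Most of that sum was the histamine enzyme Hdc. All 7 tested genes of the 9 had estimates above 0, beside 48.8% of all tested genes, with a median log2 fold change of 1.59. At an unadjusted edgeR p under 0.05 there were 2 of the 7, beside 4.18% of all tested genes. Only 3 of the 9 were above the floor in all 6 libraries, so that part of these estimates rests on few counts. The mast cell protease Cma1 had 11.9, 2.85 and 0 CPM in the knockout libraries, against 0.875, 0 and 2.32 CPM in the control libraries, and Cpa3 had 6.40, 1.64 and 1.22 CPM in the knockout libraries, against 1.49, 1.74 and 2.00 CPM in the control libraries. Both were highest in knockout replicate 1, as was the whole sum. The other IgE receptor subunits, Fcer1a and Ms4a2, reached at most 0.474 and 0.356 CPM. The part of mast cell RNA in the Fcer1g values was not tested.

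Tyrobp had 504, 497 and 505 CPM in the knockout libraries, against 351, 347 and 571 CPM in the control libraries. The 3 knockout libraries lay within 1 narrow band (coefficient of variation 0.842%), above control replicates 1 and 2 and below control replicate 3, and the coefficient of variation of the controls was 30.4%. The log2 fold change was 0.25 (SE 0.19, 95% interval -0.17 to 0.66; edgeR p = 0.217, adjusted p = 0.997; exact permutation p = 0.40). Without control replicate 3 it was 0.53 with an edgeR adjusted p of 0.269, the smallest adjusted p of any of the 7 genes under the alternatives tried. In FPKM, Tyrobp was 2.82, 2.76 and 3.07 times Fcer1g in the knockout libraries, against 2.34, 2.15 and 3.26 times in the control libraries.

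Syk, the kinase that docks on phosphorylated activation motifs, had 325, 368 and 279 CPM in the knockout libraries, against 317, 394 and 282 CPM in the control libraries. The 2 ranges nearly coincided. For Syk the log2 fold change was -0.03 (SE 0.16, 95% interval -0.38 to 0.32; edgeR p = 0.849, adjusted p = 0.997; exact permutation p = 0.90), and its sign turned without knockout replicate 3 or control replicate 2.

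**Figure D4:**
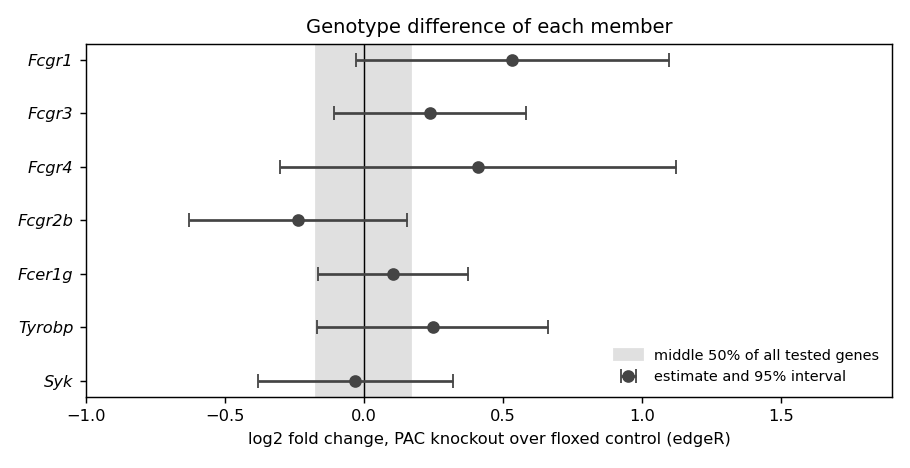
Log2 fold change of knockout over control with its 95% interval (edgeR, n = 3 libraries per group); the grey band holds the middle 50% of all 12786 tested genes, -0.17 to 0.17. All 7 intervals include 0.

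The authors' deposited table gives similar estimates for these genes, with log2 fold changes of 0.53 for Fcgr1, 0.23 for Fcgr3, 0.40 for Fcgr4, -0.24 for Fcgr2b, 0.10 for Fcer1g, 0.25 for Tyrobp and -0.03 for Syk. The smallest unadjusted p among them in the authors' deposited table is 0.0537, for Fcgr1, and all 7 have an adjusted p of 0.999 there.

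The profiles over the 6 libraries were also set beside each other, as the root-mean-square difference of centred log2 CPM. Among the 7 genes, Fcgr3 and Fcer1g were the most alike (0.15), followed by Fcgr2b and Syk (0.20), and Fcgr1 and Fcgr2b were the least alike (0.54). Among 10183 protein-coding genes (average log2 CPM of 1 or more), the nearest to Fcgr3 were Scarb2 (0.045), Pdia3 (0.048) and Slc25a23 (0.052). The nearest to Fcgr1 were Nudt17 (0.096), March3 (0.10) and H2-Q10 (0.11). The nearest to Fcgr4 was Mxd1 (0.10), and the nearest to Fcgr2b was Apc (0.049). For Tyrobp the nearest were Lhpp (0.041), Lamtor4 (0.043) and Bsg (0.044), for Fcer1g Acly (0.024), and for Syk Myo9b (0.037). Genes that vary little lie close to many others on this measure, which is given as a description.

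Genes that act beside the 7 were read from the same fit. No gene of the 6 lists described here passed at an adjusted p under 0.05 in either direction, as for all tested genes (0%), and every gene named below had an edgeR adjusted p of 0.997. Counts at an unadjusted p under 0.05 are to be read against 4.18% of all tested genes, and counts without overlap against 9.33%.

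Among other Fc receptors, 8 of 12 listed genes were tested, 3 with estimates above 0 and 5 below, with a median log2 fold change of -0.17, which ran from -0.73 without knockout replicate 1 to 0.69 without control replicate 2. Fcrls, an Fc receptor-like gene that also marks small peritoneal macrophages, had 5.81, 0.822 and 4.32 CPM in the knockout libraries, against 6.85, 16.5 and 9.37 CPM in the control libraries, without overlap (log2 fold change -1.57, SE 0.63; edgeR unadjusted p = 0.0371). Fcgrt, the neonatal Fc receptor that recycles IgG in endosomes, averaged 171 ± 17.6 CPM in the knockout and 212 ± 64.2 CPM in the control (SD, n = 3 each), with overlap. The B cell genes Fcrla and Fcrl1 were at most 12.7 and 3.25 CPM, each highest in control replicate 2, the library with the largest B cell sum.

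Receptors that pair with Fcer1g or Tyrobp had 15 of 19 members tested, 6 above 0 and 9 below, with a median of -0.05 and none at an unadjusted p under 0.05. Clec4e (Mincle), a glycolipid sensor and the most abundant of them in CPM, had 1599, 1903 and 2074 CPM in the knockout libraries, against 1551, 1509 and 1761 CPM in the control libraries (log2 fold change 0.21, SE 0.14). Pira2, an activating immunoglobulin-like receptor, stood at 0.81 (SE 0.38), Sirpb1c at 0.71 (SE 0.35) and the lipid receptor Trem2 at -0.44 (SE 0.23) on the log2 fold change scale. Trem1, an amplifier of inflammatory signals, averaged 190 ± 70.3 CPM in the knockout and 196 ± 40.7 CPM in the control (SD, n = 3 each). Knockout replicate 3 was the highest library of both Pira2 and Sirpb1c. Without it Pira2 was at 0.51 and Sirpb1c at 0.30, and without control replicate 3 Pira2 was at 1.35. Sirpb1c was at 0.46 without control replicate 2, and Trem2 at -0.25 without knockout replicate 2. Pira2 and Sirpb1c belong to families of near copies that may share reads.

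Of the proximal kinases, adaptors and effectors, all 28 were tested, 14 above 0 and 14 below, with a median of -0.0026. The Src-family kinase Lyn averaged 410 ± 19.3 CPM in the knockout and 392 ± 36.6 CPM in the control, and the adaptor Lcp2 (SLP-76) 452 ± 18.9 CPM in the knockout and 417 ± 73.2 CPM in the control (SD, n = 3 each). The scaffold Gab2 had a log2 fold change of -0.30 (SE 0.19), which was -0.10 without control replicate 1, its highest library, and -0.17 without knockout replicate 3.

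Among inhibitory phosphatases and adaptors, all 12 were tested, 10 below 0 and 2 above, with a median of -0.05. At an unadjusted p under 0.05 there were 3 of the 12. Inppl1 (SHIP2), an inositol phosphatase related to Inpp5d, had 55.7, 64.1 and 56.5 CPM in the knockout libraries, against 75.6, 84.9 and 69.3 CPM in the control libraries, without overlap (log2 fold change -0.38, SE 0.13; edgeR unadjusted p = 0.0142). Dok2, an adaptor that dampens Ras signalling, stood at -0.43 (SE 0.17; edgeR unadjusted p = 0.0291) and the ubiquitin ligase Cblb at -0.42 (SE 0.19; edgeR unadjusted p = 0.0459), both with overlapping groups. Cblb had 56.9, 48.3 and 43.9 CPM in the knockout libraries, against 86.6, 58.0 and 54.9 CPM in the control libraries, and was at -0.18 without control replicate 1. Inpp5d, the phosphatase recruited by Fcgr2b, had 179, 209 and 184 CPM in the knockout libraries, against 305, 205 and 196 CPM in the control libraries (log2 fold change -0.31, SE 0.17). Its control replicate 1 stood apart from the other 5 libraries and was also the library with the most Fcgr2b. Without it Inpp5d was at -0.07. The tyrosine phosphatase Ptpn6 (SHP-1) averaged 222 ± 7.96 CPM in the knockout and 230 ± 17.7 CPM in the control (SD, n = 3 each).

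Receptors with inhibition motifs had all 12 members tested, 6 above 0 and 6 below, with a median of -0.05 and none at an unadjusted p under 0.05. Pirb, an inhibitory counterpart of the Pira family, averaged 366 ± 105 CPM in the knockout and 461 ± 96.5 CPM in the control, and Lilrb4a 970 ± 168 CPM in the knockout and 787 ± 217 CPM in the control (SD, n = 3 each). Siglece, a sialic acid receptor, had 8.66, 20.8 and 8.31 CPM in the knockout libraries, against 7.21, 9.04 and 6.0 CPM in the control libraries. Its log2 fold change of 0.76 (SE 0.37) was 0.19 without knockout replicate 2. Cd300lf, a lipid receptor, stood at 0.56 (SE 0.32) on the log2 fold change scale, and at 0.28 without knockout replicate 1. Cd300lf was the higher in all 3 knockout libraries, with 10.1, 6.45 and 5.82 CPM, against 5.82, 5.33 and 4.0 CPM in the control libraries, where the lowest knockout and the highest control were almost equal.

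The actin machinery of the phagocytic cup had all 18 members tested, 11 above 0 and 7 below, with a median of 0.03. At an unadjusted p under 0.05 there was 1 gene, Arf6, a small GTPase of membrane traffic to the cup, with 58.2, 55.3 and 70.5 CPM in the knockout libraries, against 90.3, 78.9 and 70.2 CPM in the control libraries (log2 fold change -0.38, SE 0.15; edgeR unadjusted p = 0.0251). Rac2, the haematopoietic Rac GTPase, had 349, 315 and 314 CPM in the knockout libraries, against 262, 297 and 282 CPM in the control libraries, without overlap (log2 fold change 0.22, SE 0.12). Actr3, a subunit of the Arp2/3 complex, averaged 610 ± 75.8 CPM in the knockout and 602 ± 41.9 CPM in the control, and the exchange factor Dock2 542 ± 28.6 CPM in the knockout and 612 ± 55.6 CPM in the control (SD, n = 3 each).

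With 1 library left out, the list medians ran from -0.09 to 0.11 for receptors that pair with the adaptors, -0.07 to 0.08 for receptors with inhibition motifs, -0.13 to -0.01 for inhibitory phosphatases and adaptors, -0.0059 to 0.03 for proximal kinases, adaptors and effectors, and -0.0075 to 0.07 for the actin machinery. The median of the 7 genes ran from 0.12 to 0.27.

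**Figure D5:**
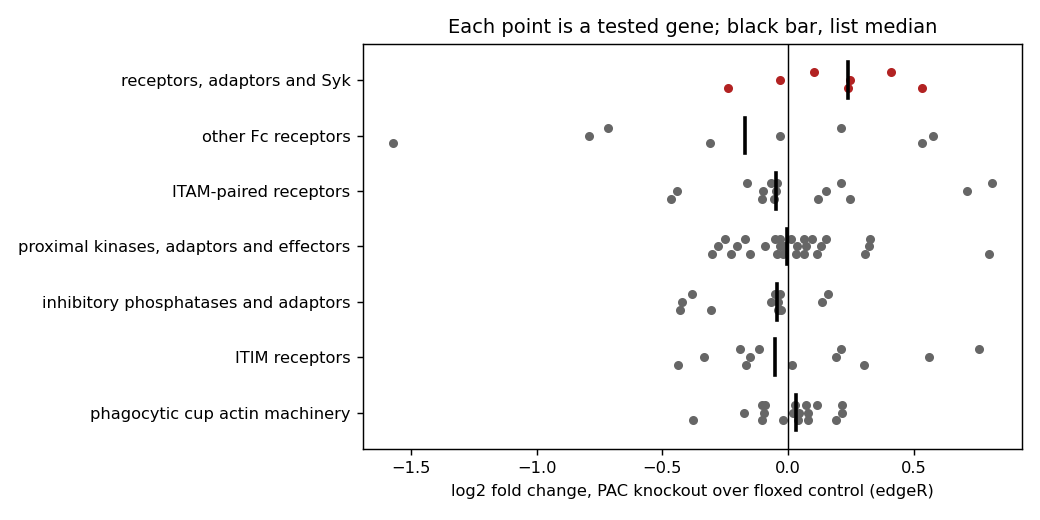
Log2 fold change of knockout over control for each tested gene of the 7 receptor, adaptor and kinase genes (red) and of 6 lists of genes that act beside them (grey), with list medians as black bars. The medians of the 6 lists lie between -0.17 and 0.03, and that of the 7 genes at 0.24.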

How the data were processed

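Raw counts per gene in the deposited table were the values tested. Per the submitters' processing notes, reads were aligned with HISAT2 2.0.5 to mm10 and counted with featureCounts 1.5.0-p3; the sources used here do not give the strand setting, annotation release or treatment of multi-mapped reads. FPKM was computed by the authors from gene length and counts, per the labels' protocols, and served here to compare levels between genes. The deposited normalised signal, a count divided by a size factor, was not used. The deposited log2 fold changes and p-values are the authors' own, made with a tool that is not named.

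Libraries were grouped by title. Genes passing edgeR 4.0.16's default filter (12786 of 20336) were scaled by TMM and tested in R 4.3.3 with the robust quasi-likelihood test, a design of genotype alone, and adjustment by Benjamini-Hochberg over all of them. SEs were derived from the F statistic, and 95% intervals use the fit's degrees of freedom. Exact permutation tests were two-sided, on CPM. The procedure was checked on simulated counts. The 7 genes are defined by name and by no threshold on a value, but they and the lists were chosen with earlier results of these data known. From each list the text draws on at most 4 genes of smallest p and the 2 of highest CPM. Library pairs within a group differed beyond sampling noise (chi-square per gene at least 32.0). Some items are not reported here. Columns of other samples numbered 0. Alternatives were other scalings and filters, DESeq2 1.42.0, limma-voom (limma 3.58.1), no robust prior, a replicate block, a threshold of 0.1 and each library left out.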

Additional observations from a re-analysis of the deposited data

How the results depend on the processing

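Of the 15 alternatives, 13 refit the fold change, and over the 7 genes 89 of their 91 values kept their direction. None of the 7 genes passed the threshold under any of the 15. The 2 exceptions were Syk, at 0.07 without knockout replicate 3 and 0.12 without control replicate 2, for which the cause was not tested. With 1 library left out, log2 fold changes ran from 0.35 to 0.74 for Fcgr1, 0.15 to 0.39 for Fcgr3, 0.23 to 0.80 for Fcgr4, -0.38 to -0.09 for Fcgr2b, 0.05 to 0.17 for Fcer1g, 0.12 to 0.53 for Tyrobp and -0.13 to 0.12 for Syk.

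Called genes numbered 0 with all libraries (534 at an unadjusted p under 0.05), 38 with no filter on low counts and 22 with DESeq2, and 0 to 18 with 1 library left out: 5 without knockout replicate 1, 2 without control replicate 1 and 18 without control replicate 3. The cause was not tested. None of the 7 genes was among them. limma-voom called 0 genes (701 at an unadjusted p under 0.05).

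The shared replicate numbers gave no consistent pairing: deviations of same-numbered libraries correlated at -0.05, -0.06 and 0.08 for numbers 1, 2 and 3. Only the libraries of number 3 correlated best with their own number. Correlations this weak do not decide whether the libraries are paired. With the replicate block, edgeR called 0 genes (537 at an unadjusted p under 0.05), with Fcgr1 at 0.53, Fcgr4 at 0.45 and Tyrobp at 0.29, and Fcrla turned to 0.13.

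The genes named from lists were put through the same alternatives, chosen after seeing the data. Sign changes arose with 1 library left out for Fcrl1 (-1.23 to 0.35), Fcrla (-1.67 to 1.39), Trem1 (-0.35 to 0.19), Ptpn6 (-0.10 to 0.012) and Actr3 (-0.059 to 0.11). With 3 libraries per group, the 95% intervals of Fcgr1 and Fcgr4 include a log2 fold change of 1.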
